A study of Mus musculus with 24 samples.

Results

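Of the 24 libraries of a mouse peritoneal metastasis experiment, 10 held at least 100 TPM of Wt1, and these 10 are compared here: 5 from control samples and 5 from samples treated with a short-chain fatty acid. TPM, the unit of the deposited table, is the share of a library's transcript abundance that falls on a gene, with the transcripts of a gene name summed. The libraries were chosen by this measured value and by no other. Wt1 encodes a transcription factor of the mesothelium, the lining of the abdominal cavity, and of some ovarian cells and tumours. The rule kept 5 of 6 control libraries (replicates 1, 2, 4, 5 and 6), 2 of 6 propionate libraries (replicates 3 and 4), 1 of 6 butyrate libraries (replicate 2) and 2 of 6 libraries treated with both acids, called combination below (replicates 3 and 4).

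Per the labels, all samples were mouse peritoneum, the control group had no treatment, and the series title refers to mannose, anti-PD-1 treatment and ovarian cancer. Strain, age, tumour line, dose, duration, and whether any group received mannose or anti-PD-1 do not appear in the sources used here. Nothing states that replicates were separate animals, so every p-value here reflects variation among these libraries, part or all of which may be technical.

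Propionate and butyrate are made by gut bacteria from fibre, and butyrate has the longer carbon chain of the pair. Cells sense them through the surface receptors Ffar2 and Ffar3, and butyrate also through Hcar2. Both acids are taken up through monocarboxylate carriers, and inside the cell butyrate in particular inhibits histone deacetylases. Interferon gamma, released by activated T cells and natural killer cells, raises the genes of antigen presentation: class I molecules, which show peptides from inside a cell to CD8 T cells, and class II molecules, which show engulfed material to CD4 T cells. It also raises chemokines such as Cxcl9, which attract T cells.

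Wt1 chose the libraries, so its levels are a description. Control replicates 1, 2, 4, 5 and 6 held 131, 368, 217, 328 and 257 TPM. The propionate libraries held 336 and 254 TPM, the butyrate library 166 and the combination libraries 216 and 203. Control replicate 1 lay just inside the threshold, and butyrate replicate 3, at 71.4 TPM, just outside it. The selected groups averaged 260 ± 93.1 TPM (SD, n = 5) in control and 235 ± 64.5 with acid. Krt8, a keratin that ran with Wt1 within the 10 libraries, averaged 191 ± 77.6 and 159 ± 50.2 TPM. Outside the set, combination replicate 5 held 122.98 TPM of Krt8 and 0 of Wt1.

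The label of the set was checked against other markers. The mesothelial genes Msln (39.11 to 79.96 TPM), Upk3b (52.20 to 230.42 TPM) and Krt19 (94.98 to 312.61 TPM) were present in all 10 libraries. The carcinoma markers Epcam, Pax8, Cldn4 and Wfdc2 stayed at 0.83 TPM or less. Of the 14 genes of the epithelial and carcinoma list, 7 reached 1 TPM in at least 5 libraries. Among these were Krt18 (74.13 to 208.9 TPM), Elf3 (1.1 to 4.21 TPM) and Cdh1 (0.69 to 2.64 TPM). Cyp19a1 and Fshr, which mark the granulosa cells of the ovary, were listed at 0. Amhr2 and Nr5a1, which are active in gonadal cells, were abundant, at 188 to 506 and 20.16 to 57.98 TPM. Amh and Star, also on the ovary list, were present in all 10 libraries, at 2.50 to 11.36 and 41.46 to 137.48 TPM. So were Ahsg of the hepatocyte list (20 to 62.48 TPM) and Pnlip of the exocrine pancreas list (7.20 to 24.31 TPM). Most of these 2 lists was lower: 1 of 8 hepatocyte genes and 3 of 12 pancreas genes reached 1 TPM in at least 5 libraries. The markers therefore do not settle which tissues the set held. The samples also held much skeletal muscle: the muscle list score, an average of log2(TPM + 1) over the tested genes of the list, ran from 9.27 to 11.14 in control and from 9.38 to 10.84 with acid.

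The 10 libraries each had 14319 to 14949 genes at 1 TPM or more, and mitochondrial transcripts took 12.8 to 20.5% of the TPM. The correlation between any 2 of them was 0.941 to 0.978, so none was a copy of another. The first principal component held 32.4% of the variance. Its ends were control replicate 1 at -36.6 (lowest Wt1, 131 TPM) and control replicate 2 at 45.4 (highest Wt1, 368 TPM). All treated libraries lay between these, with butyrate replicate 2 at -33.1. On the second principal component, which held 19.3% of the variance, the propionate and combination libraries lay between -31.1 and -9.5. The controls lay between -2.1 and 30.3, and the butyrate library at 20.1, inside the control range. Butyrate replicate 2 thus stood apart from the other treated libraries, and the medians of the immune lists described are given with and without it. It was singled out after the values were seen, so the results without it are a description.

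The comparison of any acid with control asked whether the treated samples differed when samples with little Wt1 were set aside. Genes of T cells, cytotoxic lymphocytes, dendritic cells, antigen presentation and the interferon gamma response lay above control. Those of the cell cycle lay slightly below. So did the mesothelium list, but its median was 0.04 without butyrate replicate 2. No single gene passed the test: limma called 0 of 14640 genes (0%) at an adjusted p under 0.05, with 0.174 as its lowest adjusted p. Before adjustment, 664 genes (4.54%) were higher and 191 (1.3%) lower at p under 0.05 in limma. With median-of-ratios scaling these counts were 807 and 350, and with quantile normalization 790 and 392. The median log2 fold change over all genes was -0.03, and 6412 genes (43.8%) lay above control. All 5 treated libraries exceeded all 5 controls for 130 genes (0.888%) and lay below all 5 for 48 (0.328%). Without butyrate replicate 2, limma called 116 genes (0.792%), every one of them higher, with a smallest adjusted p of 0.00745. Of the 10 fits that each left out 1 library, no other called more than 1 gene.

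The 10 genes with the smallest p among the higher ones came mostly from immune cells. Ccl4, a chemokine that attracts T cells and macrophages, held 1.57, 1.95, 1.69, 1.64 and 2.07 TPM in the controls. It held 4.65 and 3.61 TPM with propionate, 3.09 with butyrate and 4.37 and 5.24 with the combination. All treated libraries therefore lay above all controls, with a log2 fold change of 0.89 ± 0.14 (SE), but limma's adjusted p was 0.174.

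Clec9a marks the dendritic cells that take up dead cells and present them to CD8 T cells. It held 1.51, 2.66, 2.08, 1.84 and 0.92 TPM in the controls, 4.57 and 4.61 with propionate, 3.97 with butyrate and 5.57 and 4.35 with the combination. The groups did not overlap and the difference was 1.03 ± 0.17 on the log2 scale (adjusted p = 0.174 in limma). Klrk1 encodes NKG2D, an activating receptor of natural killer and CD8 T cells. It held 3.43, 2.11, 3.77, 3.15 and 1.68 TPM in the controls, 6.57 and 7.11 with propionate, 5.35 with butyrate and 11.59 and 10.46 with the combination, a difference of 1.25 ± 0.22 (adjusted p = 0.174).

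Ms4a4b, a membrane protein of T cells, held 2.40, 1.18, 2.93, 3.54 and 1.94 TPM in the controls. It held 9.88 and 12.39 TPM with propionate, 4.07 with butyrate and 11.44 and 18.12 with the combination. The butyrate library lay just above the highest control, and the other 4 treated libraries lay far above it. Rnase6, a ribonuclease of myeloid cells, averaged 5.89 ± 0.816 TPM (SD, n = 5) in control and 16.5 ± 6.13 with acid, and the 2 groups did not overlap. Trbv13-1, a variable segment of the T cell receptor beta chain, stayed at or under 0.70 TPM in the controls and at 1.19 to 3.52 TPM in every treated library. Since it reached 1 TPM in treated libraries only, it could pass the filter on low values only by differing; 8 genes were of this kind. Ighv1-69, a variable segment of the antibody heavy chain, was at 0 in control replicates 2, 4 and 5 and at 0.49 and 2.40 TPM in the others, against 3.43 to 17.55 TPM in the treated libraries. Segments of this family share sequence, so the split of reads between them is uncertain.

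The last 3 of the 10 were not lymphocyte genes. Dkk2, a secreted modulator of Wnt signalling, averaged 1.6 ± 0.184 TPM in control and 3.34 ± 0.630 with acid. Adm, the vessel-dilating peptide adrenomedullin, averaged 3.75 ± 0.395 and 7.45 ± 1.64 TPM. Cldn1, a tight junction protein, averaged 2.48 ± 0.257 and 4.49 ± 0.576 TPM. Each had an adjusted p of 0.195 in limma and no overlap between the groups. All 10 of these genes passed in limma once butyrate replicate 2 was left out, with adjusted p-values from 0.00745 (Ms4a4b and Rnase6) to 0.0406 (Dkk2). They were picked by their p in these same libraries, so passing there is no separate support.

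**Figure D1:**
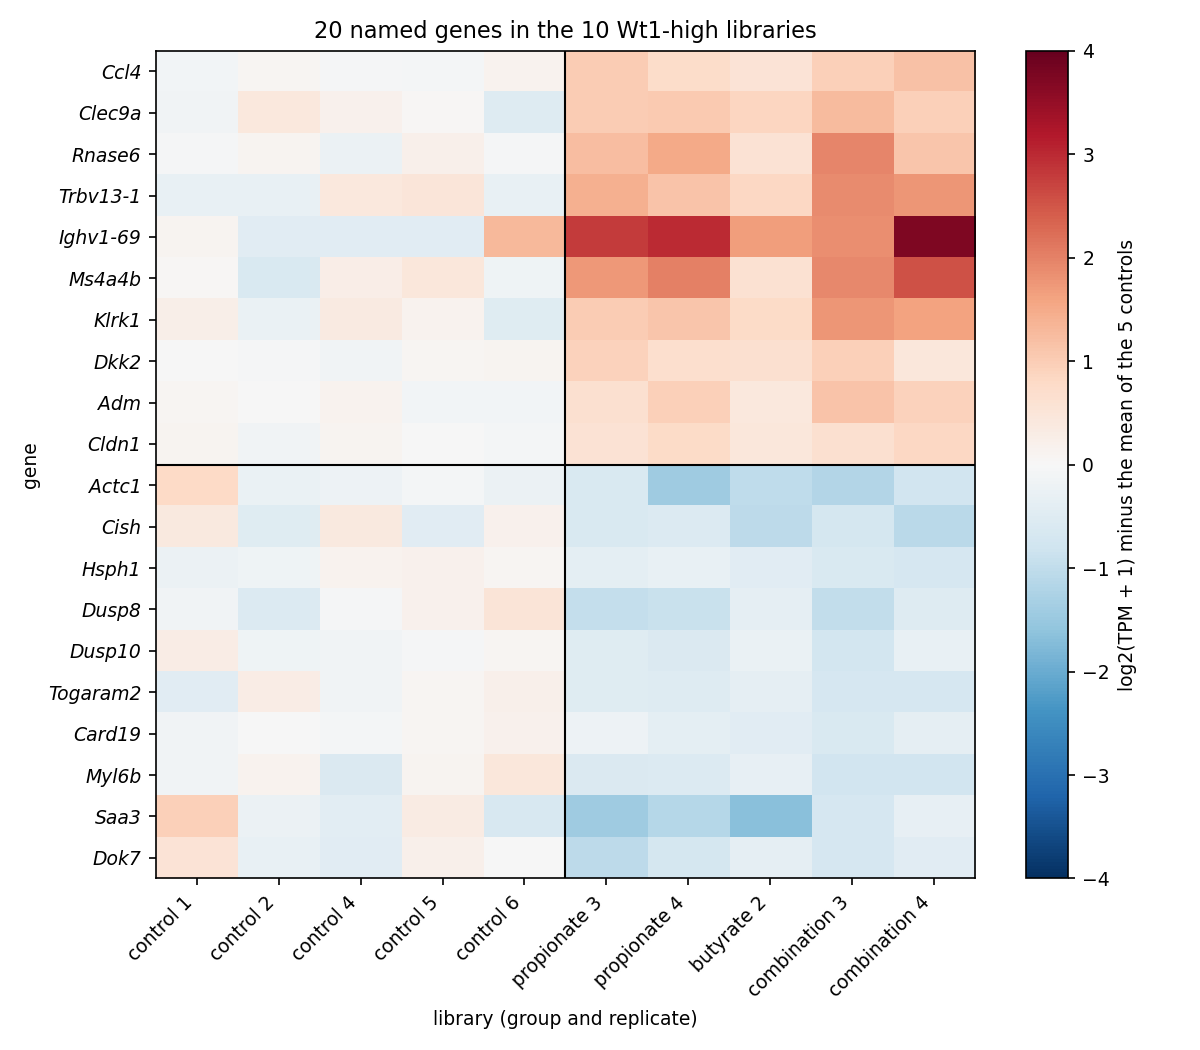
The heat map shows, for the 10 higher and 10 lower genes named by smallest p (rows) in the 10 Wt1-high libraries (columns), log2(TPM + 1) minus the mean of the 5 controls, on a colour scale from -4 to 4. The upper 10 genes are above the control mean in all 5 treated libraries and the lower 10 below it, and none of the 20 passed limma's test over all genes.

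Among the 10 genes with the smallest p on the lower side, Actc1, the actin of heart muscle, held 45.64, 21.20, 22.04, 24.04 and 21.46 TPM in the controls. It held 16.39 and 8.86 TPM with propionate, 12.25 with butyrate and 10.86 and 14.66 with the combination. The groups did not overlap, with control replicate 1 far above the other controls, and the difference was -1.0 ± 0.22 (adjusted p = 0.254 in limma). Cish, a feedback inhibitor of cytokine receptors that STAT5 induces, averaged 7.41 ± 2.42 TPM in control and 3.72 ± 0.799 with acid, a difference of -0.80 ± 0.21 without overlap. Hsph1, a heat shock chaperone, averaged 45.7 ± 6.27 and 32.3 ± 3.56 TPM, also without overlap. The phosphatases Dusp8 and Dusp10, which switch off MAP kinases, differed by -0.74 ± 0.20 and -0.47 ± 0.13. Saa3, an acute-phase protein that inflamed tissue makes, averaged 105 ± 52.2 and 48.8 ± 19.1 TPM, and its groups overlapped. The other 4, Togaram2, Card19, Myl6b and Dok7, differed by -0.65 to -0.39, and the adjusted p of these 10 genes was 0.254 to 0.483.

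All 13 tested members of the T cell list lay above control, where 43.8% of all genes did, with a median log2 fold change of 0.66. At an unadjusted p under 0.05, 10 of the 13 were higher, where 4.54% of all genes were. Cd3g, a chain of the CD3 complex that signals for the T cell receptor, held 2.83, 2.02, 3.17, 3.65 and 4.22 TPM in the controls. It held 8.23 and 11.30 TPM with propionate, 4.22 with butyrate and 11.45 and 13.36 with the combination. The butyrate library equalled the highest control, and the other 4 were above all controls; the difference was 1.30 ± 0.26. Cd3d and Cd3e, its partner chains, differed by 1.01 ± 0.22 and 1.02 ± 0.29, and the costimulatory receptor Cd28 by 0.49 ± 0.14. Without butyrate replicate 2 the median of the list was 0.87 and limma called 4 of the 13, against 0.792% of all genes. In bulk tissue, more cells of a type cannot be told apart from more of its RNA per cell.

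The 4 tested members of the cytotoxic lymphocyte list were all above control, each at an unadjusted p under 0.05 in limma, with a median of 1.09. Nkg7, a protein of cytotoxic granules, held 2.02, 1.02, 2.93, 2.94 and 3.72 TPM in the controls. It held 6.76 and 8.96 TPM with propionate, 2.58 with butyrate and 8.61 and 11.24 with the combination. Again the butyrate library alone among the treated lay within the control range. Klrd1, which encodes the natural killer receptor CD94, averaged 2.79 ± 0.682 TPM in control and 6.02 ± 1.39 with acid, and all 5 treated libraries were above all controls. Gzma, a granule protease, averaged 1.14 ± 0.448 and 3.44 ± 2.19 TPM. Most of the list was too low to test, with 9 of its 13 members under the filter. Without the filter all 13 lay above control, with a median of 0.36. Over the 4 tested members the median was 1.26 without butyrate replicate 2, and 3 of the 4 were called, against 0.792% of all genes.

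T cell receptor variable segments showed the same split between libraries, in a sum chosen after the values were seen. Summed over the 178 segments in the table, they held 12.2, 9.54, 17.2, 18.2 and 17.5 TPM in the controls. They held 45.6 and 53.8 TPM with propionate, 16.8 with butyrate and 53 and 63.2 with the combination. The number of segments at 1 TPM or more was 1 to 7 in the controls, 16 and 22 with propionate, 5 with butyrate and 17 and 21 with the combination. So the propionate and combination libraries had both more receptor RNA and more detectable segments than any control.

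Checkpoint and regulatory T cell genes were also above control in all 6 tested members, with a median of 0.46 and 3 of 6 at an unadjusted p under 0.05. Without butyrate replicate 2 the median was 0.62 and 1 of the 6 was called, against 0.792% of all genes. Tigit, an inhibitory receptor of T cells, averaged 1.12 ± 0.327 TPM in control and 2.72 ± 0.956 with acid. Il2ra, the high-affinity interleukin 2 receptor chain of regulatory and activated T cells, averaged 1.17 ± 0.200 and 2.41 ± 1.20 TPM. Cd274 encodes PD-L1, the ligand of the receptor that anti-PD-1 treatment blocks. It held 3.77, 3.65, 5.99, 6.39 and 2.59 TPM in the controls, 8.10 and 9.38 with propionate, 3.15 with butyrate and 9.44 and 11.12 with the combination. Its receptor gene Pdcd1 held 0.73 to 1.54 TPM in control and 0.91 to 2.22 with acid, and these ranges overlapped.

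A set of 14 genes was tested singly, below the filter as well, with two-sided exact permutation tests over every arrangement of the 10 libraries into 5 and 5, whose smallest possible p is 0.00794. Gzmb, the granule protease granzyme B, held 0.29, 0.18, 0.23, 0.79 and 0.23 TPM in the controls and 1.37, 1.31, 0.47, 1.59 and 1.22 in propionate 3 and 4, butyrate 2 and combination 3 and 4. It was higher in 24 of 25 treated and control pairs (exact permutation p = 0.0159, adjusted over the 14 genes 0.0556). Foxp3, the master regulator of regulatory T cells, averaged 0.548 ± 0.168 and 1.06 ± 0.274 TPM, with the same exact permutation p and 24 of 25 pairs. Il15, a cytokine on which natural killer and memory CD8 T cells depend, had means of 8.17 ± 2.80 and 14.3 ± 1.86 TPM, again with exact permutation p = 0.0159. In the butyrate library Il15 was just above the highest control, at 12.76 against 12.48 TPM. None of the 14 genes passed after adjustment.

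In cytotoxic genes tested singly the groups overlapped. Ifng, which encodes interferon gamma, held 0.20 to 0.62 TPM in control and 0.19 to 1.97 with acid (exact permutation p = 0.175). Prf1, the pore-forming perforin, held 0.09 to 0.57 and 0.08 to 0.92 TPM (exact permutation p = 0.31). Cd8a, the co-receptor of cytotoxic T cells, held 0.19 to 1.12 and 0.52 to 3.17 TPM and was higher in 19 of 25 pairs (exact permutation p = 0.103).

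Interferon gamma response genes lay above control in all 15 tested members, with a median of 0.69, and 7 of the 15 were higher at an unadjusted p under 0.05. Cxcl9 held 12.52, 9.74, 14.54, 19.26 and 8.84 TPM in the controls. It held 36.47 and 52.57 TPM with propionate, 13.09 with butyrate and 43.06 and 59.47 with the combination, a difference of 1.48 ± 0.35 over the 5 treated libraries. Iigp1 and Gbp5, GTPases that attack the vacuoles of intracellular pathogens, differed by 1.21 ± 0.37 and 0.91 ± 0.30. In 14 of the 15 genes, all 4 propionate and combination libraries lay above all 5 controls, where 564 of all genes (3.85%) did and 95 (0.649%) had all 4 below. In all 15, the butyrate library lay within the control range or below it, as for 13579 of all genes (92.8%). Without that library the median was 0.99 and limma called 4 of the 15, against 0.792% of all genes. Of the type I interferon response genes, 14 of 15 lay above control with a median of 0.37 (0.50 and 1 of 15 called without butyrate replicate 2), and 1 was at an unadjusted p under 0.05: Mx1, an antiviral GTPase, which averaged 1.71 ± 0.296 TPM in control and 3.58 ± 1.18 with acid.

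Class I presentation genes were above control in all 14 members, with a median of 0.53 and 10 at an unadjusted p under 0.05. H2-D1, a classical class I heavy chain, held 383.76, 423.22, 464.54, 440.65 and 406.72 TPM in the controls. It held 696.27 and 666.67 TPM with propionate, 350.66 with butyrate and 717.06 and 674.23 with the combination. The 4 propionate and combination libraries were close to each other and well above the controls, and the butyrate library was below all of them. H2-Q7 and H2-Q4, nonclassical heavy chains, differed by 0.83 ± 0.23 and 0.66 ± 0.21, though reads can be shared within this gene family. Nlrc5, the transactivator of class I genes, averaged 8.36 ± 3.39 and 12.9 ± 2.69 TPM. Without butyrate replicate 2 the median was 0.73 and limma called 9 of the 14 genes higher, against 0.792% of all genes.

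Class II genes, most active in dendritic cells, macrophages and B cells, showed the same order of libraries. H2-Ab1, a class II beta chain, held 551.98, 678.94, 668.81, 654.10 and 766.75 TPM in the controls. It held 1106.29 and 1166.03 TPM with propionate, 564.59 with butyrate and 1324.58 and 1055.10 with the combination. All 9 members were above control, with a median of 0.58 and 6 at an unadjusted p under 0.05. H2-Oa, which modulates peptide loading, averaged 1.58 ± 0.289 TPM in control and 3.74 ± 1.19 with acid. The alpha chain H2-Aa averaged 1080 ± 122 and 1710 ± 498 TPM, and H2-DMa, which helps load peptides, 75.0 ± 8.79 and 119 ± 35.6. In all 9 genes the 4 propionate and combination libraries lay above every control (3.85% of all genes) and the butyrate library did not, a pattern that 434 of all genes (2.96%) had. Without the butyrate library the median was 0.78 and 6 of the 9 were called higher, against 0.792% of all genes.

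**Figure D2:**
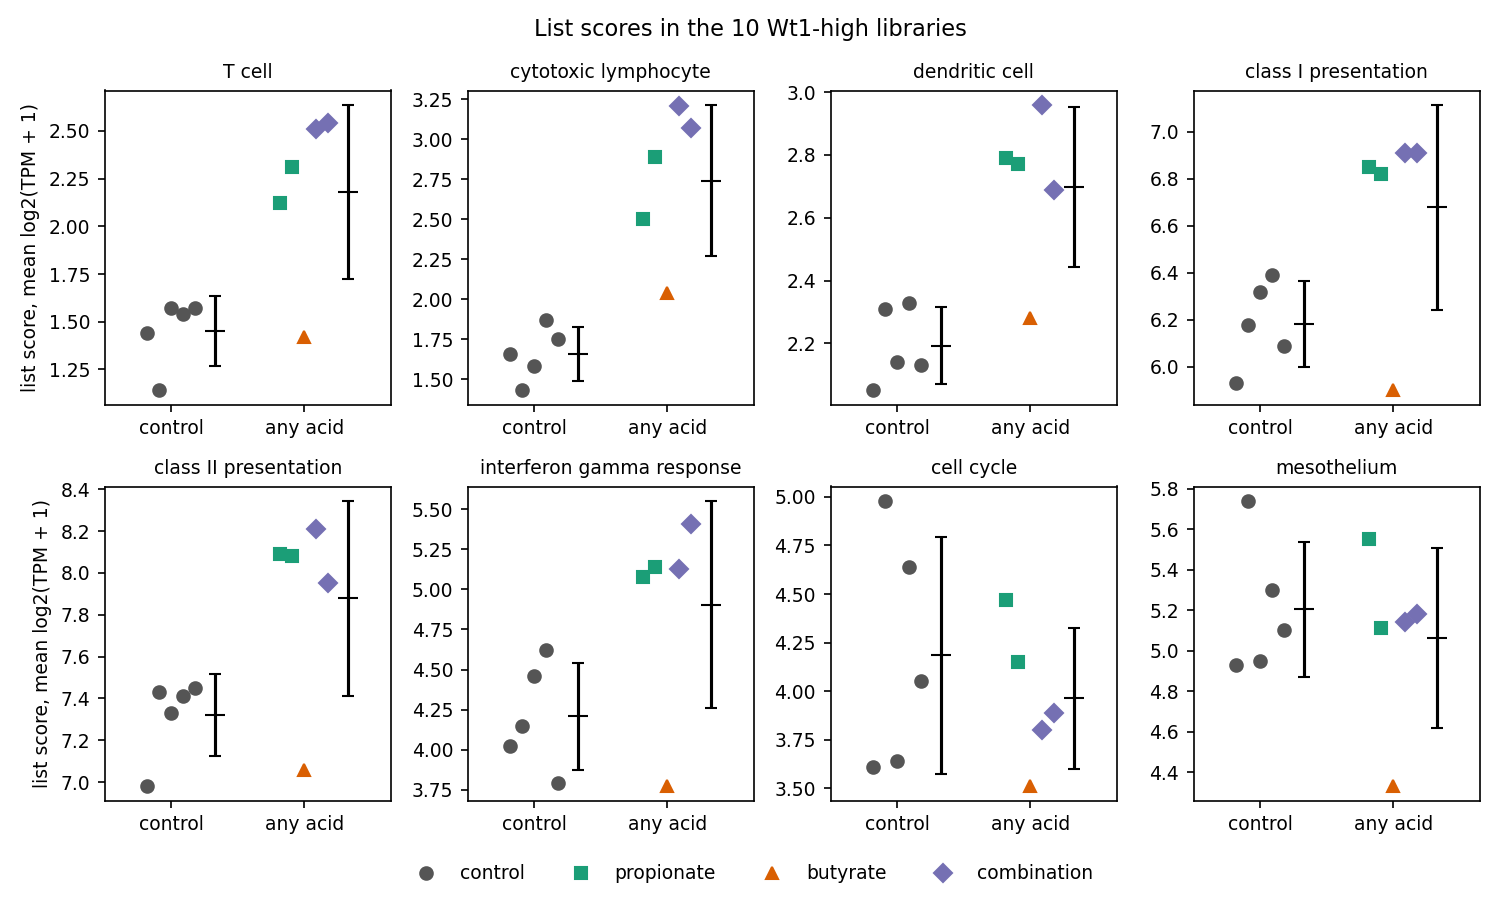
Each panel shows the score of a gene list (average log2(TPM + 1) over its tested genes) in the 5 control (circles) and 5 acid-treated libraries (squares propionate, triangle butyrate, diamonds combination), with the mean and SD of each group as a bar beside the points; the vertical axes do not start at 0. For T cell, class I, class II and interferon gamma genes the 4 propionate and combination libraries lie above all controls and the butyrate library does not, while cell cycle and mesothelium scores overlap.

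Shown are 4 promoters of class I and class II genes, picked from those that hold the letters marked below. They are from RefSeq, build GRCm38.p6, an older build than the mm39 named for the files. Each is the 120 bases before the start of the gene, 5′ to 3′ on the strand of the gene. Capitals mark CTGATTGG or its reverse complement CCAATCAG, the letters of the Y box, a textbook element of class II promoters that the factor NF-Y binds. The windows are chr17:34287824-34287943 (minus strand) for H2-Aa, chr17:34305747-34305866 (plus strand) for H2-Eb1, chr17:35262974-35263093 (plus strand) for H2-D1 and chr17:36032702-36032821 (minus strand) for H2-T23.
H2-Aa: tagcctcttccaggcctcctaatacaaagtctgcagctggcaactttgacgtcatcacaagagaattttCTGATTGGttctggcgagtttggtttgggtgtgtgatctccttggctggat
H2-Eb1: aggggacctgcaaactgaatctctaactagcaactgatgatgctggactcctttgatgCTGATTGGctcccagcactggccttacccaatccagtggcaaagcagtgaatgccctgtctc
H2-D1: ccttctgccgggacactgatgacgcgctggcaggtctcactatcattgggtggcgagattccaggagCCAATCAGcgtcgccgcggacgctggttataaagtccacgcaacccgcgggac
H2-T23: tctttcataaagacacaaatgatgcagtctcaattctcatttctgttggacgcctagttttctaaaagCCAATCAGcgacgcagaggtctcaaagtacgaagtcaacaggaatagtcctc

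In the class II promoters shown the 8 letters read in the forward direction and in the class I promoters shown in reverse. In these 4 they begin 51 to 62 bases before the start. Over the 250 bases before the start, on either strand, 5 of the 12 class I genes and 3 of the 6 class II genes with a window held them, as did 1198 of the 27025 genes in the table (4.43%), or 3.83% of its 32851 windows. A match describes the letters only. The levels of these 4 genes ran together: H2-Eb1 differed by 0.58 ± 0.21, H2-T23 by 0.50 ± 0.19, H2-Aa by 0.61 ± 0.22 and H2-D1 by 0.51 ± 0.19 between the 5 treated and the 5 control libraries. Their butyrate values, 860.56, 90.21, 875.21 and 350.66 TPM, were each below the mean of the controls.

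Of 14 macrophage genes, 13 lay above control with a median of 0.30, and 3 were at an unadjusted p under 0.05: Timd4, a receptor of resident peritoneal macrophages (2.50 ± 0.732 against 4.31 ± 1.05 TPM), the lysozyme gene Lyz2 and the mannose receptor gene Mrc1. Among the genes of alternative activation, a state that interleukin 4 induces in macrophages, 6 of 8 were above control, with a median of 0.46. Retnla, a secreted product of such macrophages, held 212.02, 305.74, 256.83, 354.06 and 316.57 TPM in the controls. It held 963.69 and 920.83 TPM with propionate, 428.46 with butyrate and 2252.64 and 860.68 with the combination. All 5 treated libraries were above all controls, at 1.72 ± 0.34. Arg1, another gene of that list, differed by -0.23 ± 0.45, with the highest value (24.55 TPM) in a control. Dendritic cell genes were above control in 8 of 9 members, 7 of them at an unadjusted p under 0.05, with a median of 0.52. Among the 7 was Irf8, a factor the cross-presenting type needs, at 11.8 ± 1.59 and 19.2 ± 4.07 TPM and no overlap. Without butyrate replicate 2 the median of the dendritic cell list was 0.63 and 2 of its 9 genes were called. For alternative activation these values were 0.65 and 1 of 8, and for macrophage genes 0.43 and 0 of 14. Of all genes, 0.792% were called in that fit.

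B cell and plasma cell genes were above control in all 9 tested members, with a median of 0.78, but their spread was wide and 1, Iglc2, was at an unadjusted p under 0.05. The median was 1.29 without butyrate replicate 2, and none was called. Jchain, the chain that joins secreted antibodies, held 175.57, 106.65, 223.36, 24.00 and 103.47 TPM in the controls. It held 141.89 and 348.89 TPM with propionate, 104.74 with butyrate and 471.33 and 396.29 with the combination, so the controls and the propionate libraries overlapped. Ms4a1, which encodes the B cell surface protein CD20, was at 0.86 TPM or less throughout. Antibody variable segments, summed after their values were seen, held 629 to 5720 TPM in the controls, 3220 and 6530 with propionate, 1890 with butyrate and 10300 and 8820 with the combination. Neutrophil genes were above control in 5 of 5 tested members, with 0 at an unadjusted p under 0.05.

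Part of the stromal genes lay above control too. Of 12 fibroblast genes, 9 were above control and 4 at an unadjusted p under 0.05, among them Dpt, which encodes the matrix protein dermatopontin (226 ± 28.0 against 351 ± 48.8 TPM, no overlap), and Dcn, which encodes decorin. In a list added after the values were seen, 3 of the 4 tested genes were above control: Cxcl13, Ccl19 and Ltb, which organise lymphoid tissue, differed by 0.96 ± 0.36, 0.63 ± 0.23 and 0.67 ± 0.25. Ccl21a, a chemokine of lymph node stroma and lymphatic vessels, differed by -0.31 ± 0.96, with 12.48 to 50.32 TPM in the controls, 68.44 and 36.29 with propionate, 38.84 with butyrate and 0.87 and 9.65 with the combination. Other markers of lymph nodes and follicles on that list were near 0, with Cr2 at 0.27 TPM or less, Madcam1 at 0.21 or less and Glycam1 at 0.51 or less. Their part in the lymphocyte values was not tested. Endothelial genes had a median of 0.00 and adipocyte genes of 0.25, and none of either list was at an unadjusted p under 0.05 in limma. All 5 erythroid genes were above control, with a median of 0.44 and none at that level.

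Proliferation genes overlapped between the groups in the Wt1-high libraries. Mki67, a marker of cycling cells, held 7.78, 22.48, 9.05, 18.62 and 8.44 TPM in the controls. It held 14.98 and 10.88 TPM with propionate, 7.47 with butyrate and 9.04 and 9.68 with the combination. All treated values lay inside or just below the control range, 11 of 25 pairs were higher with acid, and the exact permutation p was 0.492. Of 20 cell cycle genes, 19 were below control, with a median of -0.24 and 0 at an unadjusted p under 0.05. Without replicate 2 of butyrate the median was -0.11. The mesothelium list, which holds Wt1, had a median of -0.14 and the ovary list -0.15. Without that butyrate library these medians were 0.04 and 0. By treatment, the mesothelium median was 0.15 with propionate, -0.08 with the combination and -0.82 with butyrate.

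No gene for sensing, carrying or breaking down the acids passed after adjustment. RNA levels do not show whether the acids acted on the proteins. Hcar2, the butyrate receptor of immune cells, held 0.64 to 1.03 TPM in control and 0.98 to 1.52 with acid and was higher in 23 of 25 pairs (exact permutation p = 0.0238, adjusted 0.0667). Ffar2 held 0.37 to 0.90 and 0.24 to 1.12 TPM (exact permutation p = 0.627), and Ffar3 was at 0.07 TPM or less in every library. Slc16a1, the main carrier of these acids into cells, averaged 20.9 ± 3.61 and 17.8 ± 3.58 TPM (exact permutation p = 0.206). The 11 zinc-dependent histone deacetylases had a median of -0.06, 10 genes known to respond to their inhibitors -0.05, and 18 genes of propionate and butyrate breakdown -0.05. Higher at an unadjusted p under 0.05 in limma were 1 of 5 carrier genes (Emb, 0.46 ± 0.18) and 1 of the 18 breakdown genes (Acss3, 0.37 ± 0.17). Of all genes, 4.54% were. Cdkn1a, the cell cycle inhibitor p21 and a classical response gene of such inhibitors, held 38.49 to 50.10 TPM in control and 28.39 to 38.57 with acid. It was higher with acid in 1 of 25 pairs, with a log2 difference of -0.34 (exact permutation p = 0.0159, adjusted 0.0556).

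Skeletal muscle genes lay below control in 16 of 16 members, with a median of -0.28, and 0 were at an unadjusted p under 0.05. The muscle score was 9.38 and 10.12 with propionate, 10.15 and 10.29 with the combination, 10.84 with butyrate and 9.27, 10.24, 10.75, 11.00 and 11.14 in the controls. Muscle was thus lower in the libraries high in immune genes than in 3 of the 5 controls. With the muscle score as a covariate limma called 0 genes, as it did without it. The median of the class I, class II, T cell and interferon gamma lists was above 0 in both fits. The score comes from the same libraries, and the part of muscle content in the immune differences was not tested. Mitochondrially encoded genes had a median of 0.03, and 18 oxidative phosphorylation genes of -0.15.

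The samples with little Wt1 can be set beside this by fitting all 24 libraries, 18 treated and 6 control, of which the 10 are part. There limma called 0 of 15163 genes (0%), with 268 (1.77%) higher and 4047 (26.7%) lower before adjustment, and the median over all genes was -0.25. The cell cycle list had a median of -1.41 there and -0.24 in the Wt1-high libraries, the mesothelium list -1.49 and -0.14, and the ovary list -2.16 and -0.15. Class II genes were above control in 1 of 9 members in all libraries, with a median of -0.52, against 9 of 9 and 0.58 here, and 24.1% of all genes lay above control in that fit. Class I genes gave 4 of 14 and -0.10, against 14 of 14 and 0.53, and interferon gamma genes 7 of 15 and -0.09, against 15 of 15 and 0.69. T cell genes gave 13 of 14 and 0.30, against 13 of 13 and 0.66. Combination replicate 5, outside the Wt1-high set with 0 TPM of Wt1, stood apart, with a T cell score of 6.12 (0.59 to 2.54 in the other 23 libraries) and a skeletal muscle score of 1.14 (9.27 to 11.87). Without it the T cell list over the remaining libraries gave 7 of 11 and 0.08, class I 3 of 14 and -0.22, class II 0 of 9 and -0.59, interferon gamma 5 of 15 and -0.13, and the cell cycle list a median of -1.45, where 22.8% of all genes lay above control with a median of -0.29. Wt1 itself differed by -2.69 over all libraries and by -0.10 in the selected ones. The difference between the fits, which share libraries, was not tested.

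**Figure D3:**
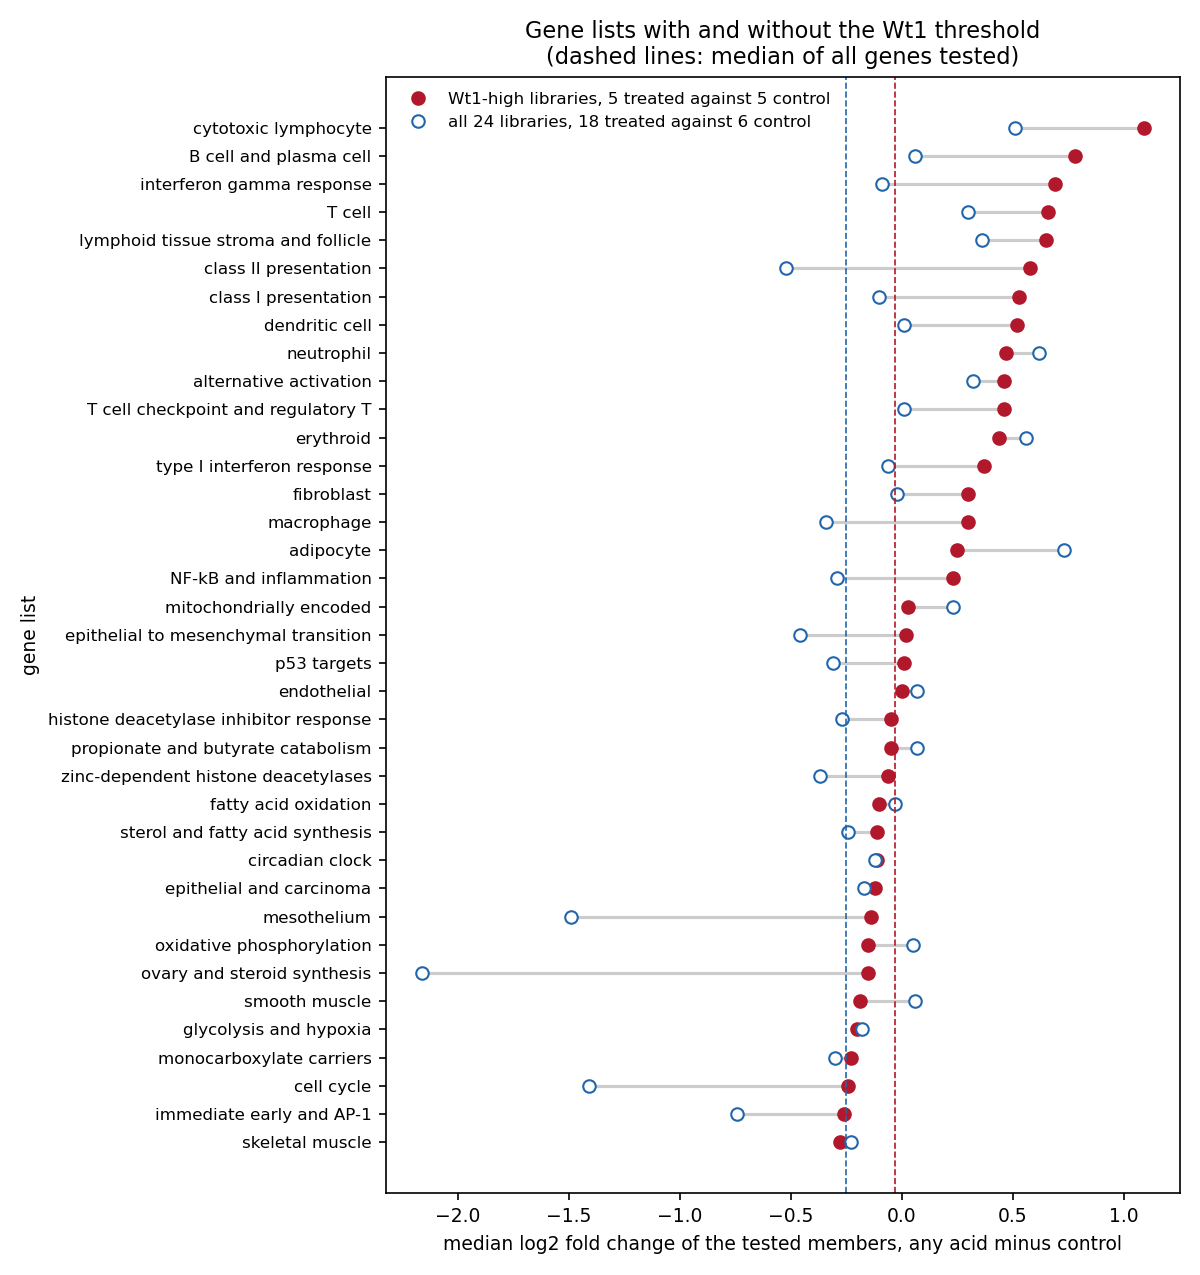
For each gene list with at least 4 tested members (rows), the horizontal axis gives the median log2 fold change, any acid minus control, in the 10 Wt1-high libraries (filled) and in all 24 libraries (open), and the dashed lines give the median of all genes in each fit. Cell cycle, mesothelium and ovary lists lie far to the left in all libraries and near 0 in the Wt1-high ones, and class I, class II and interferon gamma lists lie on opposite sides of 0.

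Single treatments were compared with the 5 controls in 1 fit that shared the spread. The 2 combination libraries gave 43 genes that passed (0.294%), every one of them higher, with a smallest adjusted p of 0.0128. Before adjustment, 764 were higher and 193 lower. In all 43, both combination libraries lay above every control. The 43 were picked by their p in these same libraries, so that is no separate support. The share of all genes with that pattern was not counted. With propionate 0 genes passed (0%), with 590 higher and 157 lower before adjustment and a lowest adjusted p of 0.15 in limma. With butyrate 0 passed (0%), with 136 higher and 449 lower, but that group is 1 library and its difference has no replicate check. Of the 43 genes, 42 lay above control with propionate and 23 with butyrate, where 69% and 29.8% of all genes did so. The 43 were picked as high against the same 5 controls, so these counts are no separate sign of agreement between treatments. With the combination 39.9% of all genes lay above control.

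Among the genes that rose with the combination, Ccl5, a chemokine of activated T cells, held 14.27, 6.85, 13.67, 14.88 and 13.87 TPM in the controls and 56.97 and 53.42 with the combination. It rose by 2.08 ± 0.27 on the log2 scale (adjusted p = 0.0193 in limma), and it held 32.65 and 43.22 TPM with propionate and 9.40 with butyrate. Ubd, an interferon-induced ubiquitin-like protein, held 0.40 to 1.61 TPM in the controls and 6.78 and 12.43 with the combination (2.43 ± 0.31, adjusted p = 0.0193). Serpina3g, a protease inhibitor of activated lymphocytes, rose by 1.94 ± 0.23 and Gbp2b, an interferon-induced GTPase, by 2.18 ± 0.35. Retnla rose by 2.29 ± 0.32 (adjusted p = 0.0217), Ms4a4b by 2.23 ± 0.28 and Pla2g2d, a phospholipase of dendritic cells and macrophages in lymphoid tissue, by 2.20 ± 0.32.

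The 5 largest rises among the 43 were in antibody segments. Ighv1-26 held 7.88, 4.77, 12.55, 2.43 and 7.27 TPM in the controls and 145.30 and 137.49 with the combination, a rise of 4.30 ± 0.44 (adjusted p = 0.0128 in limma). It held 46.10 and 27.13 TPM with propionate and 2.06 with butyrate. Igkv3-2, a light chain segment, held 8.22 to 26.17 TPM in the controls, 151.91 and 166.87 with the combination, and 12.44 and 21.87 with propionate, inside the control range. Ighv4-1 rose by 3.82 ± 0.53, and the butyrate library was high too, at 28.81 TPM against at most 2.37 in the controls. Ighv2-9 rose by 3.88 ± 0.56 and Igkv4-51 by 2.63 ± 0.38. The remaining 31 genes included Cxcl9, Trbc1, Trbc2, Cd3e, Cd3g, Klrk1, Gzma, Gbp5, Psmb8, H2-Q6, Ccl22, Ccl24 and Slamf7. By list, 3 of 13 T cell genes, 2 of 4 cytotoxic genes, 2 of 8 alternative activation genes, 2 of 15 interferon gamma genes, 1 of 15 type I interferon genes and 1 of 14 class I genes passed with the combination, against 0.294% of all genes. None of 9 class II, 9 dendritic cell or 9 B and plasma cell genes passed there. Of the 43, 36 were also among the 116 called when butyrate replicate 2 was left out, and both comparisons share the controls and the combination libraries.

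The count of 43 rested on single libraries. Without control replicate 6 it was 2 (Ighv1-26 and Igkv3-2), without control replicate 1 it was 15, and without control replicate 2 it was 66. Without combination replicate 3 it was 5 (2 higher and 3 lower) and without combination replicate 4 it was 6. With butyrate replicate 2 left out it was 43.

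Combination and propionate share one acid and were compared directly, but the labels give no dose for either. Limma called 0 of 14640 genes (0%), with 81 higher and 104 lower before adjustment and 0.251 as its lowest adjusted p. For Cxcl9 the combination was above propionate by 0.20, with a 95% interval from -0.54 to 0.95, and for Retnla by 0.56 (-0.28 to 1.41). For Ccl5 it was 0.54 (-0.16 to 1.25). For Ighv2-9 the difference was 3.96 (2.46 to 5.46) and for Igkv3-2 3.19 (2.23 to 4.15). These intervals are for single genes and are not adjusted over all genes, of which none passed.

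The lists set the 3 treatments side by side. T cell genes had medians of 0.71 with propionate, 1.11 with the combination and -0.06 with butyrate, and cytotoxic genes 1.00, 1.61 and 0.33. Class I genes had 0.68, 0.74 and -0.31, class II genes 0.77, 0.79 and -0.24, and interferon gamma genes 0.91, 1.08 and -0.39. B cell and plasma cell genes had 0.60, 1.76 and -0.11. Cell cycle genes had 0.15, -0.35 and -0.69. The medians over all genes were 0.11, -0.06 and -0.18. The difference of butyrate from the other treatments rests on 1 library and was not tested. Butyrate replicate 2 also had the lowest mesothelium score (4.33) and the highest mitochondrial share (20.5%) of the 10 libraries, and their part in the result was not tested.

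**Figure D4:**
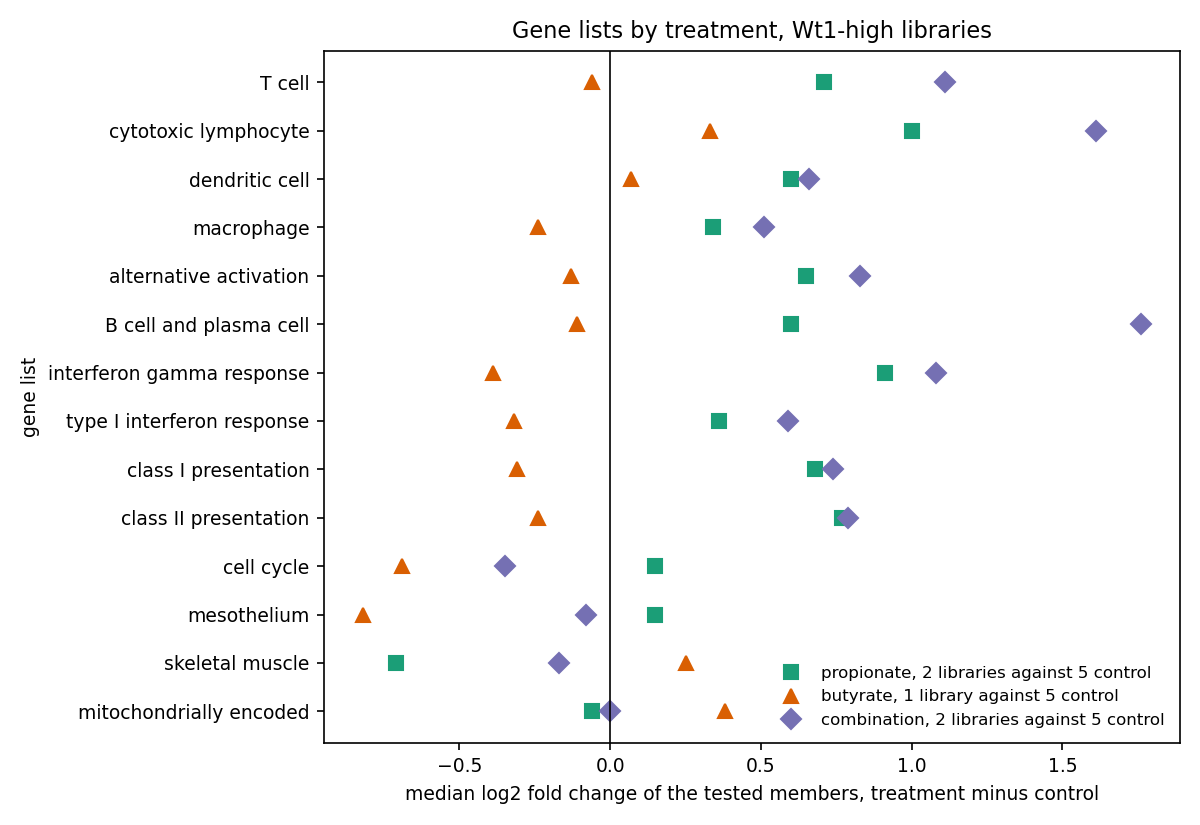
For each gene list (rows), the horizontal axis gives the median log2 fold change of the tested members against the 5 controls, for propionate (squares, 2 libraries), butyrate (triangles, 1 library) and the combination (diamonds, 2 libraries). Immune lists lie to the right of 0 for propionate and combination and near or below 0 for butyrate, except the cytotoxic list, at 0.33.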

How the data were processed

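The authors deposited 1 table of TPM for 149132 transcripts in 24 libraries, a unit from which sequencing depth cannot be read, so no counting interval is given. TRIzol extraction and stranded mRNA libraries are stated, per the labels' protocols. Tools named in the submitters' processing notes are fastp, HISAT2 and StringTie, with build mm39; their versions and settings, the annotation and the use of strand: not given in the sources used here. TPM was summed by gene name (56422 names), and 1001 transcripts without a name, 0.174 to 0.470% of the TPM of a library, were left out.

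Libraries with a Wt1 TPM of at least 100 were kept, and genes at 1 TPM or more in at least 5 of these 10 (14640) were tested as log2(TPM + 1) with limma 3.58.1 (trend and robust moderation, R 4.3.3), two-sided, with Benjamini-Hochberg adjustment over all genes and a threshold of 0.05. A log2 fold change on this scale understates the change of low genes. Treated and control libraries were compared in 1 fit, single treatments in a second fit with 4 groups, and all 24 libraries (1 TPM in at least 6) in another. Single genes were also tested with exact permutations, adjusted over 14 genes. The 40 gene lists and 1 added list are described by counts and medians, with no set test, and ± gives the SD for TPM and the SE for log2 fold changes. The fits were tested on simulated data.

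Named were the largest changes past the threshold with no overlap between groups (up to 12 a direction); where fewer than 10 passed, the 10 of smallest p whose log2(TPM + 1) averaged 1 or more, without predicted genes; and up to 4 members of smallest p per list. Marker genes, Ms4a1, Arg1, H2-Eb1, H2-T23 and the other genes outside that rule were chosen after their values were seen. The members, lists and tests were chosen with earlier results of these data known. Replicate numbers were checked for pairing: same-numbered libraries had correlations of -0.39 to 0.16, so the numbers were not taken as pairs. Other settings tried, 26 in number, are given in the closing section.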

Additional observations from a re-analysis of the deposited data

Results flagged for a closer look

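Of 102 groups of 5 libraries checked (named genes, the singly tested genes and 17 list scores, in control and in acid-treated libraries), 11 had a library far from the other 4, by the gap to its nearest neighbour as a share of the whole range. Chance alone marks about 1 group in 20.

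Butyrate replicate 2 was the lowest of the treated libraries in 6 of the 11. Its gap was 0.908 of the range for the class I score, 0.796 for the interferon gamma score, 0.776 for the class II score, 0.733 for Cd274, 0.728 for Gzmb and 0.720 for the checkpoint and regulatory T cell score. Its class I score was 5.90 and its class II score 7.06. Among the controls, replicate 1 was lowest for the class II score (0.727) and highest for Actc1 (0.838), replicate 4 was lowest for the fibroblast score (0.838) and replicate 5 highest for Gzmb (0.786). Ffar3 was highest in combination replicate 4 (1, the other 4 treated libraries being listed at 0), at a level near 0.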

How the results depend on the processing

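The count of genes called for any acid against control was 0 in 24 of 26 other settings, among them both replicate blocks; leaving out 1 library gave 0 to 116, with 1 (Gm15452) without control replicate 4 and 116 without butyrate replicate 2. For propionate a pseudocount of 0.1 gave 1 (Gm47101) and leaving out 1 library 0 to 5, with 5 without control replicate 4; for butyrate leaving out 1 gave 0 to 1. For the combination a pseudocount of 0.1 gave 20 (19 higher and 1 lower), median-of-ratios scaling 33, and leaving out 1 library 2 to 66, with 21 without either propionate library. For combination against propionate a pseudocount of 0.1 gave 1 and leaving out 1 library 0 to 1. Where leaving a library out left 1 in its group, that library was assumed to vary like the other groups. The cause of these shifts was not tested, beyond fewer samples.

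The replicate block by title number gave 0 calls (smallest adjusted p 0.084 in limma) and by library number 0 (0.26). With the title block the class I median was 0.19, the type I interferon median 0.00 and the adipocyte median -0.42. Over all 26 settings the medians stayed above 0 for T cell (0.44 to 1.00), cytotoxic (0.36 to 1.44), dendritic cell (0.41 to 0.68), interferon gamma (0.29 to 0.99), class I (0.19 to 0.73) and class II genes (0.24 to 0.78), and below 0 for cell cycle genes (-0.47 to -0.02). The skeletal muscle median ran from -0.58 to 0.23 and the mesothelium median from -0.54 to 0.04. Unadjusted counts of lower genes were unstable: 909 with the muscle score as a covariate and 684 without control replicate 1, against 191. A looser Wt1 threshold of 50 and a filter on the mean were added after seeing the data, and each gave 0 calls.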
